A study of Mus musculus with 13 samples.

Results

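The 8 microRNAs described here are mmu-miR-153-3p, mmu-miR-598-3p, mmu-miR-138-5p, mmu-miR-128-3p, mmu-miR-137-3p, mmu-miR-218-5p, mmu-miR-139-5p and mmu-miR-149-5p, where mmu stands for mouse and is left out from here on. They are 8 of the 1079 mouse miRNAs on an Agilent array, taken by name as miRNAs known from neurons. They were also selected on measured values, the differences between the 2 groups of these same tumours, by which miR-153-3p and miR-598-3p were among the miRNAs with the smallest p. These differences are therefore given as a description, with their SE, and no support is drawn from them. The tumours were 13 primary abdominal neuroblastomas from TH-MYCN mice, a strain that carries a MYCN transgene under a tyrosine hydroxylase promoter and develops neuroblastoma. In 7 tumours caspase-8 was deficient and the disease had spread to the bone marrow. In 6 tumours caspase-8 was wild type and no bone marrow metastasis was recorded. All tumours thus came from the MYCN background, and caspase-8 genotype and metastasis cannot be told apart. Which cells lacked caspase-8, and how old the mice were, is not stated in the labels. The comparison asks how miRNA levels differ between metastatic caspase-8-deficient tumours and non-metastatic tumours with the wild-type gene.

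A miRNA is a short RNA, cut from a hairpin precursor, that pairs with messenger RNAs mainly through its seed and lowers their translation or stability. Neurons hold a characteristic set of miRNAs that rise as neuroblasts stop dividing and mature, and neuroblastoma is a tumour of sympathetic neuroblasts. Caspase-8 is the initiator protease of apoptosis through death receptors.

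The mature sequences show that the 7 members with a RefSeq entry (GRCm38.p6) have 7 different seeds, so that none stands in for another as a member of 1 seed family. Capitals mark the seed, bases 2 to 8 from the 5′ end.
miR-153-3p: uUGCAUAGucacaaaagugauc
miR-138-5p: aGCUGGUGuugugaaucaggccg
miR-128-3p: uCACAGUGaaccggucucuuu
miR-137-3p: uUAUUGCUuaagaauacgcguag
miR-218-5p: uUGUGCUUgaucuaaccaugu
miR-139-5p: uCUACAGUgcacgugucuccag
miR-149-5p: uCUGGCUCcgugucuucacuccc

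The 8 members come from 11 hairpin genes, since miR-138-5p, miR-128-3p and miR-218-5p are each made from more than 1. Of these, 9 hairpin genes lie within the span of another gene in the RefSeq table, which gives no strand for that gene. Mature miR-153-3p is read from chr12:117250860-117250881 on the plus strand (GRCm38.p6), within the span of Ptprn2, a gene for a protein of secretory vesicles, and Mir598 lies within Xkr6 on chromosome 14. Mature miR-218-5p comes from chr5:48223966-48223986 and chr11:35616840-35616860, both on the plus strand, within Slit2 and Slit3, which encode axon guidance ligands. Mir128-2 lies within Arpp21, Mir128-1 within R3hdm1, Mir139 within Pde2a and Mir149 within Gpc1. Mature miR-138-5p comes from a hairpin within Nup93 on chromosome 8 and from Mir138-1 on chromosome 9, which lies in no other gene of the table, as does Mir137 (chr3:118433901-118433923, plus strand).

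Levels are log2 of the summed probe intensity of a miRNA, scaled between arrays and with a floor at 4.10, and a difference is the deficient mean minus the wild-type mean on that scale. Each tumour had 1 array, with a median of 413 mouse miRNAs detected and at most 469, and the 419 detected on at least 6 arrays were tested with limma. The neuroblast markers miR-124-3p, miR-9-5p, miR-7a-5p and miR-375-3p were detected on all 13 arrays, and the liver marker miR-122-5p had a scaled intensity of at most 17.5, near the floor. Because probes differ in brightness, the level of a miRNA is compared between tumours and not with that of another miRNA. In RNA from whole tumours, fewer cells of a type and less of the miRNA per cell cannot be told apart. Array slide 1 held 5 deficient and 2 wild-type tumours, and slide 2 held 2 deficient and 4 wild-type tumours, so slide and group are partly confounded. The labels call the tumours biological replicates.

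None of the 8 members passed limma's adjusted threshold of 0.05, where 0% of the 419 tested miRNAs did. At an unadjusted p under 0.05, 2 members were lower in deficient tumours, against 6 of 419 tested miRNAs (1.43%), or 16 of 419 in either direction (3.82%). These 2 were miR-153-3p and miR-598-3p, whose choice used this contrast, so that nothing is read from the count. The mean was lower in deficient tumours for 7 of the 8 members, or 6 without wild-type replicate 3, against 192 of the 419 tested miRNAs (45.8%). The median difference over the 8 was -0.30, against 0.04 over all tested miRNAs, and since the same contrast chose members nothing is read from either.

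**Figure D1:**
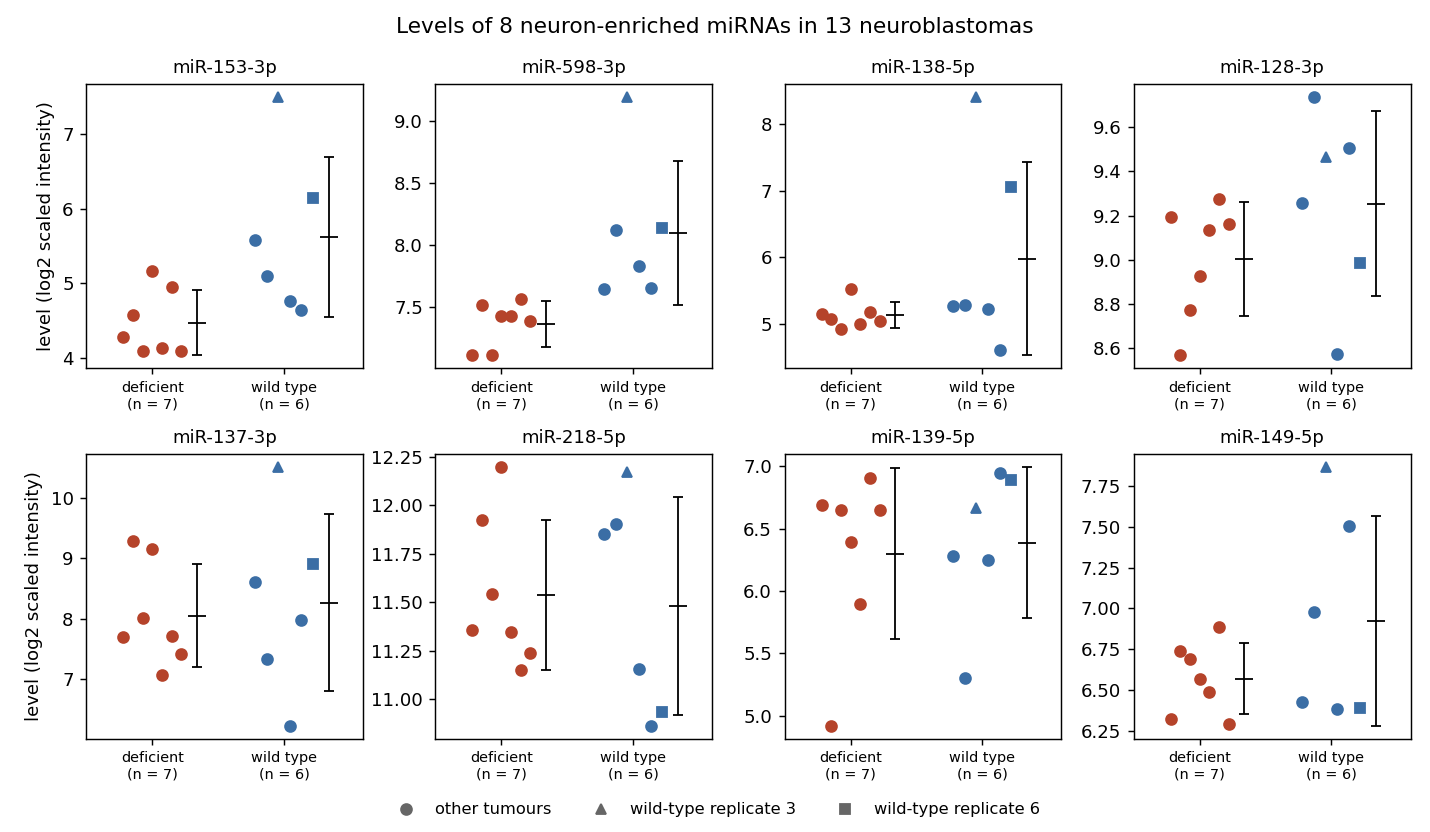
Level of each of the 8 miRNAs in the 13 tumours (log2 scaled intensity, y axis), with deficient tumours left of wild-type tumours, each point a tumour and bars the mean with SD. Deficient miR-598-3p values lie below all wild-type values, by a gap of 0.08 between the nearest tumours, and wild-type replicate 3 is at the top for 5 of the 8 miRNAs.

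miR-153-3p is a brain miRNA that, with miR-7, represses the messenger RNA of alpha-synuclein. Its level in the 7 deficient tumours ran from 4.10 through a median of 4.29 to 5.17, against 4.65 through a median of 5.34 to 7.50 in the 6 wild-type tumours. The groups overlapped: deficient replicates 4 and 6 were above the 2 lowest wild-type tumours, replicate 4 was also above wild-type replicate 2, and deficient replicates 3 and 7 were at the floor. Deficient tumours averaged 4.47 ± 0.44 (SD, n = 7) and wild-type tumours 5.62 ± 1.07 (SD, n = 6), a difference of -1.15 (SE 0.41). Wild-type replicate 3, at 7.50, and replicate 6, at 6.14, set the width of the wild-type range. Without replicate 3 the difference was -0.77. On slide 1 alone it was -0.97 and on slide 2 alone -1.04.

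The 2 probes of miR-153-3p did not carry the signal equally. The brighter probe had a scaled intensity of 20.8 to 35.9 in deficient tumours and 26.9 to 165.6 in wild-type tumours. The dimmer probe was below 0 after background subtraction on 10 of the 13 arrays. From the brighter probe alone the difference was -0.95 (SE 0.36). All 13 arrays detected miR-153-3p, but the standard error among its replicate spots reached 8.77% of its signal, above that of the other members. The size depended on how dim signals were treated: it was -0.24 with 4 times the floor, -0.35 with normexp background, -0.47 with the mean of log2 probe levels and -0.67 in the authors' series matrix.

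miR-598-3p is a miRNA enriched in brain. Its level ran from 7.11 through a median of 7.42 to 7.57 in deficient tumours, against 7.64 through a median of 7.98 to 9.20 in wild-type tumours. The groups did not overlap, with a gap of 0.08 between deficient replicate 6 and wild-type replicate 1. This was the case for 1 of the 419 tested miRNAs (0.239%), and since this contrast chose the miRNA nothing is read from it. Deficient tumours averaged 7.36 ± 0.18 (SD, n = 7) and wild-type tumours 8.10 ± 0.58 (SD, n = 6), a difference of -0.74 (SE 0.24). Its 2 probes, which carried 51.5% and 48.5% of the sum, followed each other across tumours (r = 0.999).

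The separation of miR-598-3p depended on how the signal was scaled, corrected and summed. Under 7 of 8 other ways of scaling, correcting or summing the signal the groups overlapped, with the lowest wild-type minus the highest deficient level at -0.43 to -0.04, and under 1, the mean of log2 probe levels, they stayed apart by 0.08. The difference itself was lower in deficient tumours under every one of the 32 alternatives tried, at -0.94 to -0.47. On slide 1 alone it was -0.48 and on slide 2 alone -0.94, and without wild-type replicate 3 it was -0.51.

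miR-138-5p is known in rat hippocampal neurons to limit the size of dendritic spines by repressing the depalmitoylating enzyme Lypla1. Its level in deficient tumours ran from 4.92 through a median of 5.08 to 5.52, against 4.60 through a median of 5.28 to 8.41 in wild-type tumours. The medians were close and the groups overlapped, and the wild-type range came from replicate 3, at 8.41, and replicate 6, at 7.06. Deficient tumours averaged 5.13 ± 0.19 (SD, n = 7) and wild-type tumours 5.97 ± 1.45 (SD, n = 6), a difference of -0.85 (SE 0.50). Without wild-type replicate 3 it was -0.36, and on slides 1 and 2 taken alone it was -0.24 and -0.99. The miRNA was detected in 5 of 7 deficient and 4 of 6 wild-type tumours.

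miR-137-3p acts in maturing neurons, and in mouse neural stem cells it represses the chromatin enzyme Ezh2. Its level ran from 7.06 through a median of 7.71 to 9.29 in deficient tumours, against 6.23 through a median of 8.30 to 10.52 in wild-type tumours. The wild-type group held both the highest tumour, replicate 3, and the lowest, replicate 4, and the deficient tumours lay between them. Deficient tumours averaged 8.05 ± 0.85 (SD, n = 7) and wild-type tumours 8.27 ± 1.47 (SD, n = 6), a difference of -0.22 (SE 0.59). Its 19.6-fold range was the widest among the 8, and its SD over the 13 tumours, 1.13, was above that of 89.0% of the tested miRNAs. Without wild-type replicate 3 the difference was 0.23, and on slides 1 and 2 taken alone it was -0.07 and 0.01.

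miR-128-3p, which restrains the excitability of mouse neurons, had the smallest SD of the 8 over the 13 tumours, at 0.35. Under 3 alternatives for dim signals that of miR-139-5p was smaller, at 0.154 against 0.246 for miR-128-3p with normexp background, 0.317 against 0.351 with the mean of log2 probe levels and 0.319 against 0.351 with 4 times the floor. Its level ran from 8.57 through a median of 9.14 to 9.28 in deficient tumours, against 8.58 through a median of 9.36 to 9.74 in wild-type tumours. The groups overlapped over a 2.25-fold range across all tumours, with wild-type replicates 2, 3 and 5 above every deficient tumour. The difference was -0.25 (SE 0.21), between 9.005 ± 0.26 (SD, n = 7) in deficient and 9.25 ± 0.42 (SD, n = 6) in wild-type tumours. The SD of miR-128-3p was above that of 26.5% of the tested miRNAs, whose own median SD was 0.53. On slides 1 and 2 taken alone the difference was -0.51 and -0.07.

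miR-218-5p is needed by mouse motor neurons. It ran from 11.15 through a median of 11.36 to 12.20 in deficient tumours, against 10.86 through a median of 11.51 to 12.17 in wild-type tumours. The highest tumour was deficient replicate 4 and the next wild-type replicate 3, so that the top of the range held a tumour of each group. Deficient tumours averaged 11.54 ± 0.39 (SD, n = 7) and wild-type tumours 11.48 ± 0.56 (SD, n = 6). The difference was 0.06 (SE 0.26), the only positive one of the 8. On slide 1 alone it was -0.44 and on slide 2 alone 0.50, so the slides differed in its direction, and the difference between the slides was not tested.

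miR-139-5p represses the kinase gene ROCK2 in human liver cancer cells. It ran from 4.92 through a median of 6.65 to 6.90 in deficient tumours, against 5.30 through a median of 6.47 to 6.95 in wild-type tumours. Both ranges had a low end set by 1 tumour, deficient replicate 2 and wild-type replicate 2, and covered each other otherwise. The miRNA was detected in 7 of 7 deficient and 5 of 6 wild-type tumours, and not in wild-type replicate 2. Deficient tumours averaged 6.30 ± 0.69 (SD, n = 7) and wild-type tumours 6.39 ± 0.61 (SD, n = 6). The difference was -0.09 (SE 0.34), and on slides 1 and 2 taken alone it was 0.41 and -0.14. These 2 tumours also had the lowest unscaled 75th percentiles of array intensity, 999.8 in deficient replicate 2 and 850.9 in wild-type replicate 2, out of a range of 850.9 to 1929. Across 13 tumours the level of miR-139-5p and that percentile (log2) had Pearson's r = 0.716 (permutation p = 0.0058, adjusted 0.058 over 10 relations) and Spearman's rho = 0.473 (permutation p = 0.106, adjusted 0.466). The r was 0.566 without the 2 tumours farthest from the median percentile, 0.894 within slide 1 and 0.0861 within slide 2, and the part of array brightness in the level was not tested.

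miR-149-5p shares its hairpin with miR-149-3p, which induces apoptosis in human cancer cells. It ran from 6.29 through a median of 6.56 to 6.88 in deficient tumours, against 6.38 through a median of 6.70 to 7.87 in wild-type tumours. All deficient tumours lay within or below the lower part of the wild-type range, and wild-type replicates 3 and 5 stood above all of them, as did replicate 2. The difference was -0.36 (SE 0.26), between 6.57 ± 0.22 (SD, n = 7) in deficient and 6.92 ± 0.64 (SD, n = 6) in wild-type tumours. Without wild-type replicate 3 it was -0.17, and on slides 1 and 2 taken alone -0.08 and -0.59.

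**Figure D2:**
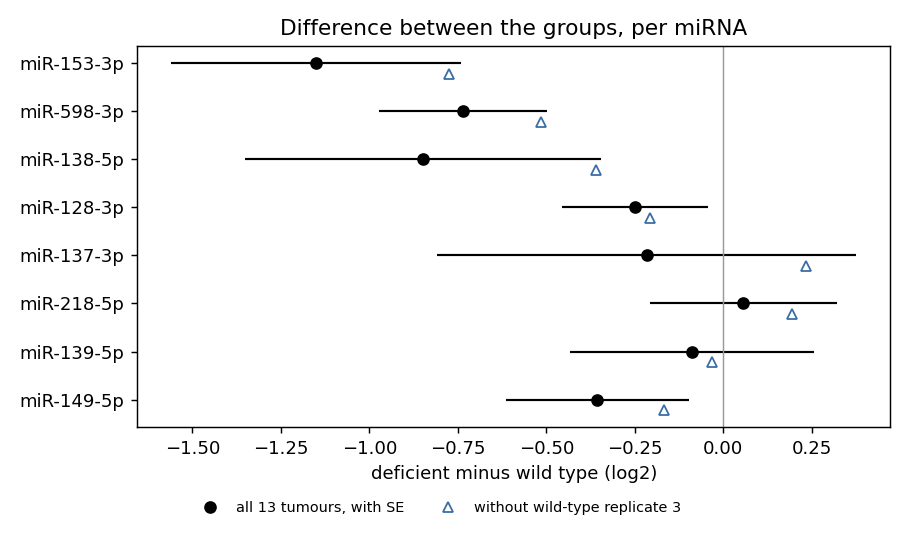
Deficient minus wild-type difference of each of the 8 miRNAs (x axis, log2), with circles and bars of 1 SE to each side for all 13 tumours and triangles, drawn without a bar, for the fit that left out wild-type replicate 3. For miR-153-3p the value is -1.15 with all tumours and -0.77 without replicate 3, and for miR-137-3p it is -0.22 and 0.23.

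Wild-type replicate 3 was the tumour that stood apart in this group of miRNAs. It had the highest level of the 13 for miR-153-3p, miR-598-3p, miR-138-5p, miR-137-3p and miR-149-5p, 5 of the 8, whereas it was highest for 74 of the 419 tested miRNAs (17.7%). It was also highest for 16 of the 24 tested miRNAs of a list of other neuronal miRNAs. The members and this list were chosen with values of these tumours known. The choice of miR-153-3p and miR-598-3p as lower in deficient tumours favours a wild-type tumour at the top, so nothing is read from either count. The summed level of a list adds intensities before log2 is taken, so its brightest miRNAs weigh most in it. In wild-type replicate 3 the summed level of the other neuronal miRNAs was 14411, the highest of the 13. It was followed by 11047 in wild-type replicate 6. The sums ran from 6036 to 14411 in wild-type tumours and from 4815 to 8126 in deficient tumours, so the groups overlapped. Not every neuronal miRNA was high there, as miR-9-5p, a miRNA of neural progenitors, was at its lowest of the 13 tumours in it, at 6.39.

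**Figure D3:**
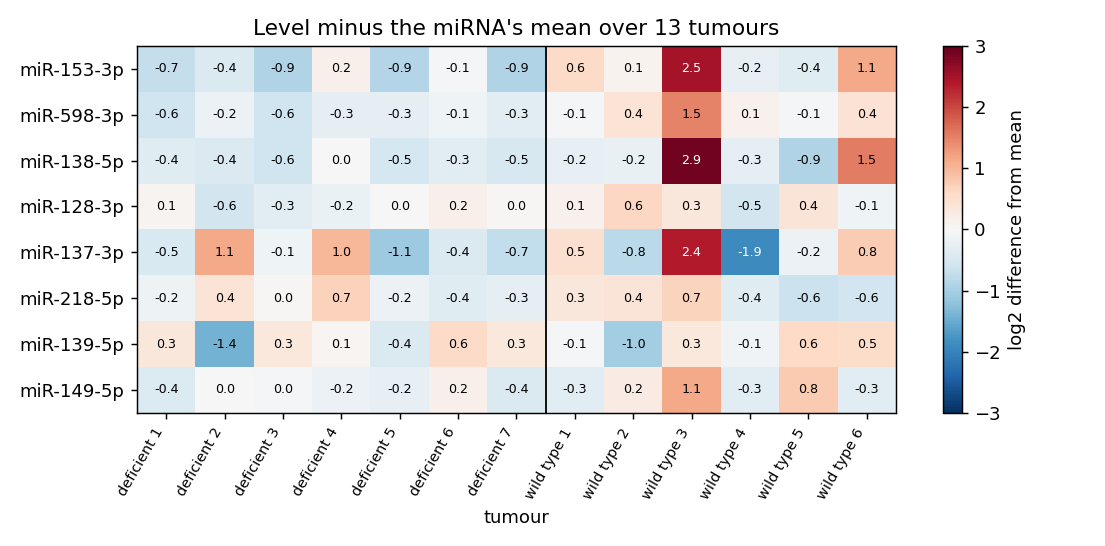
Level of the 8 miRNAs (down the page) in each tumour (across the page), as the difference from the mean of the 13 tumours on the log2 scale, with deficient tumours left of wild-type tumours. The column of wild-type replicate 3 is the highest for 5 of the 8 miRNAs, and miR-218-5p and miR-139-5p have other tumours at the top.

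In that tumour the summed levels of some marker lists of other cells were low, and those of others were not. The 2 miRNAs of the erythroid list that were on the array (miR-451 and miR-144-3p) summed to 19934 to 83502 in deficient tumours and 4988 to 69047 in wild-type tumours, with replicate 3 the lowest and replicate 6 the highest of the wild-type group. The sum of the 2 endothelial miRNAs was 1110 to 4494 in deficient tumours and 1522 to 2850 in wild-type tumours, where replicate 3 was 12th of all 13. The 4 skeletal muscle miRNAs ran from 90.6 to 8994 in deficient tumours and from 163.3 to 3588 in wild-type tumours, with replicate 3 at 248.9. Replicate 3 was also 12th in the sum of the smooth muscle and fibroblast list, at 994.5, and 10th in that of the leukocyte list, at 1107. By contrast it was 2nd in the glia list, at 285.4 within 131.2 to 294.3 in deficient tumours and 139.1 to 285.4 in wild-type tumours, and 3rd in the kidney list, at 60.2. The glia list shares miR-338-3p with the list of other neuronal miRNAs. The kidney list was near the floor: miR-192-5p was detected on 8 arrays and 9th in replicate 3, and miR-194-5p was detected on 6 arrays and 3rd. The part of these markers in the levels of the 8 miRNAs was not tested.

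The list of other neuronal miRNAs, written with earlier results of these data known, held 38 names, of which 36 were on the array and 24 were tested. Of the 24, 0 passed limma's adjusted threshold, and 3 were at an unadjusted p under 0.05, where 3.82% of all tested miRNAs were. These 3 were miR-129-2-3p, miR-129-5p and miR-384-5p. The mean was lower in deficient tumours for 17 of the 24 (70.8%) and higher for 7, beside 45.8% lower over all tested miRNAs, with a median difference of -0.24 beside 0.04. Wild-type replicate 3 was the highest tumour for 16 of the 24, and the count was not repeated without it. The list also counts miR-129-5p, miR-129-1-3p and miR-129-2-3p each, and was written with earlier results known, so nothing is read from these counts. The 2 given with their values were picked by mean signal, which depends on the probe and does not rank the miRNAs. They were miR-7a-5p, with 11.42 ± 0.45 in deficient tumours (SD, n = 7) and 11.92 ± 0.40 in wild-type tumours (SD, n = 6), and miR-7b-5p, with 9.51 ± 0.33 in deficient tumours and 9.79 ± 0.60 in wild-type tumours. Their differences were -0.50 (SE 0.25) and -0.29 (SE 0.26), and neither passed limma's adjusted threshold.

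miR-153-3p, miR-598-3p and miR-138-5p were correlated with each other across the 13 tumours. All 28 pairs of members were correlated, with 100000 permutations each and adjustment over the 28, and the members had been chosen with values of these tumours known. Since miR-153-3p and miR-598-3p were both chosen as lower in deficient tumours, a shared group shift is part of their correlation over all 13, and the p-values do not allow for that choice. miR-153-3p and miR-138-5p had r = 0.918 (permutation p = 0.00019, adjusted 0.00392) and rho = 0.88 (permutation p = 0.0001, adjusted 0.0028). miR-153-3p and miR-598-3p had r = 0.903 (permutation p = 0.00028, adjusted 0.00392) and rho = 0.781 (permutation p = 0.00238, adjusted 0.0333). miR-598-3p and miR-138-5p had r = 0.858 (permutation p = 0.00356, adjusted 0.0332) but rho = 0.61 (permutation p = 0.0298, adjusted 0.278). No other pair passed after adjustment by either measure.

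**Figure D4:**
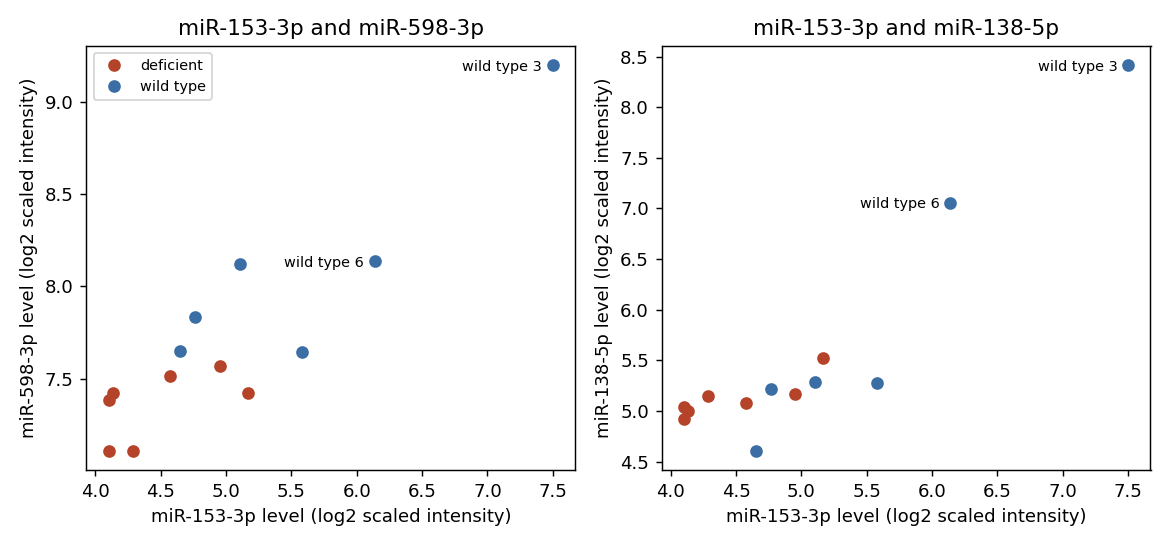
Level of miR-153-3p (x axis, log2) against miR-598-3p and miR-138-5p (y axes, log2) in the 13 tumours, each point a tumour. Wild-type replicates 3 and 6 are at the upper right of both plots, where miR-153-3p is at 7.50 and 6.14.

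These relations rested in part on wild-type replicates 3 and 6, the tumours farthest from the median of miR-153-3p. Without them r was 0.607 (permutation p = 0.047) for miR-153-3p and miR-598-3p, 0.567 (permutation p = 0.0657) for miR-153-3p and miR-138-5p, and 0.198 (permutation p = 0.56) for miR-598-3p and miR-138-5p. After each group was centred on its own mean r was 0.838, 0.923 and 0.866 in the same order. Among the 7 deficient tumours alone the 3 pairs had r of 0.557, 0.858 and 0.294, and among the 6 wild-type tumours, which include replicates 3 and 6, 0.885, 0.965 and 0.911. Within slides the 3 pairs had r of 0.694, 0.93 and 0.884 on slide 1 and 0.942, 0.973 and 0.888 on slide 2. Slide 2, with 6 tumours, holds both wild-type replicates 3 and 6, and the r after centring includes them too. The r among deficient tumours and on slide 1 rest in part on dim signals. miR-153-3p was at the floor in deficient replicates 3 and 7. miR-138-5p was not detected in deficient replicates 2 and 3 and wild-type replicate 2, all on slide 1.

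The 8 miRNAs did not all share that pattern. The most negative pair was miR-218-5p and miR-139-5p, with r = -0.496 (permutation p = 0.0854, adjusted 0.219) and rho = -0.571 (permutation p = 0.0441, adjusted 0.309). Without deficient replicate 4 and wild-type replicate 3 this r was -0.785. miR-128-3p had r of 0.0437 to 0.52 with the other members, and none passed the adjusted threshold.

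**Figure D5:**
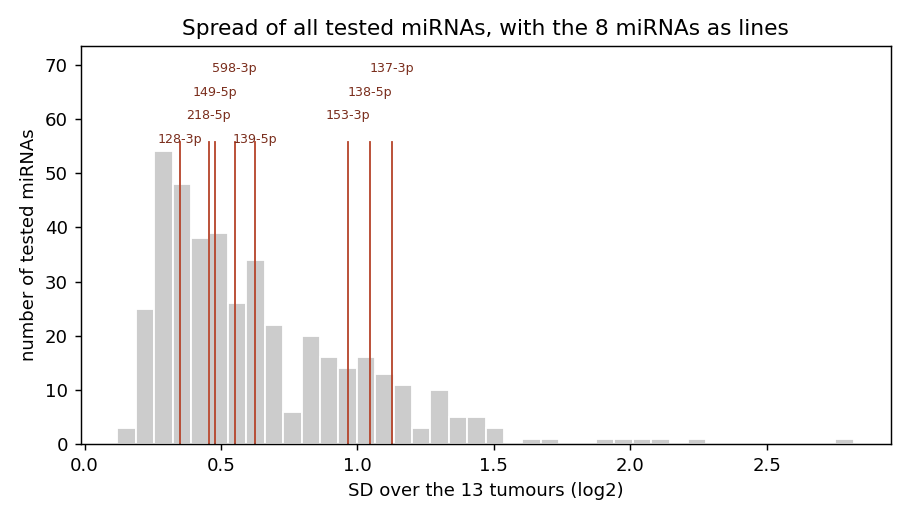
Number of the 419 tested miRNAs (y axis) by SD over the 13 tumours (x axis, log2), with a line at each of the 8 miRNAs. miR-137-3p, miR-138-5p and miR-153-3p lie to the right, at SDs of 1.13, 1.04 and 0.96, and miR-128-3p lies to the left, at 0.35.

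The spreads depended on how dim signals were treated. With normexp background the SDs of miR-137-3p, miR-138-5p and miR-153-3p were 0.71, 0.40 and 0.31. With 4 times the floor those of miR-138-5p and miR-153-3p were 0.67 and 0.39, while that of miR-137-3p was again 1.13.

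The miRNAs with the most similar pattern were read off as the highest Pearson r among the 418 other tested miRNAs over the 13 tumours, with no test. For miR-153-3p, after miR-138-5p, these were miR-384-5p (r = 0.904) and miR-598-3p, and for miR-598-3p, after its fellow members, miR-136-5p (r = 0.834, or 0.466 without wild-type replicate 3). miR-138-5p was followed by miR-384-5p (r = 0.866) and miR-34c-5p (r = 0.863). miR-137-3p was most like miR-300-5p (r = 0.918), miR-337-3p (r = 0.896) and miR-136-3p (r = 0.877), and r with these was 0.879, 0.854 and 0.807 without wild-type replicate 3. miR-218-5p was most like miR-376a-3p (r = 0.847) and least like miR-223-3p (r = -0.856), a myeloid miRNA. miR-139-5p was most like miR-23a-3p (r = 0.929), miR-128-3p most like let-7c-5p (r = 0.842) and miR-149-5p most like miR-3069-3p (r = 0.801), the last of which was 0.586 without wild-type replicate 3. For the members other than miR-218-5p, the least like miRNA was miR-3058-3p for miR-153-3p (r = -0.817) and miR-138-5p (r = -0.857). It was miR-712-3p for miR-598-3p (r = -0.823), miR-5119 for miR-128-3p (r = -0.819) and miR-10b-5p for miR-137-3p (r = -0.769). For miR-139-5p it was miR-370-3p (r = -0.758) and for miR-149-5p miR-3107-5p (r = -0.793).

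Of the 11 other forms of these hairpins on the array, 7 were detected on no array, miR-138-1-3p on 2 and miR-218-2-3p on 1. The arms opposite to the members therefore gave levels in 2 cases. miR-139-3p averaged 6.57 ± 0.45 in deficient tumours (SD, n = 7) and 6.19 ± 0.33 in wild-type tumours (SD, n = 6), a difference of 0.37 (SE 0.23). Across tumours it had r = 0.0109 with miR-139-5p (permutation p = 0.972, adjusted 0.972 over 10 relations) and rho = -0.335 (permutation p = 0.262, adjusted 0.618). miR-149-3p averaged 8.45 ± 0.36 in deficient tumours (SD, n = 7) and 8.85 ± 0.92 in wild-type tumours (SD, n = 6), with wild-type replicate 4 at 10.68 the highest and a difference of -0.39 (SE 0.36). Without replicate 4 the wild-type mean was 8.48 and the difference -0.03, so that tumour carried nearly all of it. In the same tumour miR-149-5p was at 6.383, close to the 6.387 of wild-type replicate 6. The r of miR-149-3p with miR-149-5p was -0.175 (permutation p = 0.511, adjusted 0.841) and its rho 0.104 (permutation p = 0.736, adjusted 0.896).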

How the data were processed

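The deposited scanner files give spot intensities (linear, with background subtracted and a spatial trend removed, per the file headers, and not scaled across arrays), written by Feature Extraction 10.7.3.1 (10.5.1.1 per the submitters' processing notes). The marks for detection and outliers that the authors deposited, which are other information than a level, were also used. The authors' series matrix holds deposited log2 values that the authors had given a like distribution on each array, with a median of 3.82 on each. It was used as an alternative, and how its background was treated is not stated.

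Control spots (2164 of 47604) were left out. Spots without outlier marks were averaged by probe and probes summed by miRNA, the sums were scaled so that arrays share a 75th percentile over the 294 miRNAs detected on all of them, values under 17.2 (percentile 1 of those detected) were set to 17.2, and log2 was taken. With R 4.3.3 (tables read by the data.table package at version 1.17.8), limma 3.58.1 (eBayes after lmFit) tested the 419 miRNAs detected on at least 6 arrays, two-sided, with Benjamini-Hochberg adjustment. The number of arrays limits precision: the median half-width of a 95% interval was 0.626 (log2). In a check of this comparison on simulated data, 50 of 419 miRNAs were given a log2 change of 1, 2 or 3. Of these changes 54.2%, 89.3% and 97.8% were recovered. The noise was independent between miRNAs and had the same SD in both groups, which need not hold for the tumours. The share recovered depends on these settings and is not a sensitivity measured in these data. The members, the lists and the rule for named miRNAs (all members, their other arms, the 3 most like miRNAs and 1 least like, and the 2 brightest of the neuronal list) were chosen with earlier results of these data known. Coordinates and sequences are from RefSeq (GRCm38.p6). The replicate numbers of the labels did not pair the tumours: 3 of 6 same-numbered pairs had a correlation over 0.1 and 0 of 6 matched best with their own number.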

Additional observations from a re-analysis of the deposited data

Results flagged for a closer look

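Each of the 16 groups of a member's levels was examined for a tumour far from the others of its group, which chance marks in about 1 in 20 groups. In 2 of the 16 a tumour was far from the rest. miR-138-5p was highest among deficient tumours in replicate 4, at 5.52 against 5.17 in the next tumour, a gap of 0.584 of the group's range. It was detected in 5 of these 7 tumours. miR-598-3p was highest among wild-type tumours in replicate 3, at 9.20 against 8.14 in the next tumour, a gap of 0.682 of the range.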

How the results depend on the processing

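The count of miRNAs past limma's adjusted threshold was 0 with all tumours and under each of 32 alternatives, among them scaling, background, probe summary, floor, filter, variance model, slide, series matrix and leaving out each tumour. The smallest adjusted p over these was 0.0644, with array weights, and 7 to 63 miRNAs had an unadjusted p under 0.05. With the replicate number as a block the count was 0 (smallest adjusted p 0.0794) and the differences were -1.09 for miR-153-3p, -0.74 for miR-598-3p and -0.83 for miR-138-5p. The differences of miR-153-3p, miR-598-3p, miR-138-5p, miR-128-3p and miR-149-5p kept their sign under every alternative run. Those of miR-137-3p, miR-139-5p and miR-218-5p changed sign in 2, 7 and 8 of them, and the cause was not tested. Leaving out 1 tumour gave -1.34 to -0.77 for miR-153-3p, -0.83 to -0.51 for miR-598-3p and -1.12 to -0.36 for miR-138-5p. Signal over background limits miR-153-3p, at the floor in 2 tumours, and miR-138-5p, detected on 9 of 13 arrays. It also limits miR-139-5p, detected on 12 of 13, where the standard error among replicate spots reached 7.56% of the signal. Each within-slide difference rests on 2 tumours in 1 of the groups. The brightest probe alone was added after seeing the data, as was the omission of wild-type replicate 4 for miR-149-3p. Normexp was planned, but its use of median spot signals was settled once the columns were seen.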
